A study of Homo sapiens with 14 samples.

Results

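SB431542 (SB4), a small molecule that blocks the type I receptor kinases for TGF-beta, activin and nodal, was compared with no additive in neural crest cultures induced at the low dose of CHIR99021. CHIR99021 inhibits the kinase GSK3 and thereby turns on canonical Wnt signaling. The comparison took 4 of the 14 RNA-seq libraries of the series, chosen by their titles: 2 from cultures given CHIR99021 at 3 µM (called low Wnt) and 2 from cultures given the same CHIR99021 and SB4 at 10 µM (low Wnt + SB4). Cells were WA01, the human embryonic stem cell line also known as H1, so all values come from 1 line. CHIR99021 was present in both groups from hour 0 to hour 72, SB4 stayed until hour 120, and cells were taken on day 5. For reference, the same additive was compared at 10 µM CHIR99021 (high Wnt and high Wnt + SB4), TGF-beta 1 (TGFB) was compared at 3 µM at a dose the labels give as 5 ng/µL, and uninduced stem cells (hESC) served as a further group, each with 2 libraries. The remaining 2 libraries, from 10 µM CHIR99021 with TGFB, were not compared here but entered the same statistical fit. Whether both libraries of a group stem from different cultures is not stated in the labels, and the p-values therefore capture library-to-library spread only, possibly a technical one.

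Nodal, activin and TGF-beta bind pairs of type II and type I receptors, which phosphorylate SMAD2 and SMAD3. These then enter the nucleus with SMAD4 and act with DNA-binding partners such as FOXH1. Nodal and activin signals maintain the pluripotent state of human embryonic stem cells and drive mesendoderm, and their blockade is widely used to direct such cells to neural ectoderm. The neural crest forms at the border of the neural plate, under Wnt, BMP and FGF signals, and gives rise to peripheral neurons, glia, pigment cells and, in the head, skeleton and smooth muscle.

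The libraries of the 2 groups lay far apart. Gene counts summed to 16654777 and 16764513 in low Wnt and to 16466496 and 19106827 in low Wnt + SB4. In these libraries 3 counts corresponded to 0.157 to 0.183 CPM, the usual depth-scaled unit of counts. For a count of 0, 3 is about the upper 95% limit from counting error only. On the first principal component of the 4 libraries, which held 64.6% of the variance, low Wnt lay at -32.6 and -34.9 and low Wnt + SB4 at 32.4 and 35.1. The second, with 19.7%, separated the replicate numbers within both groups. With 2 libraries per group, a component beyond the first can hold little but differences within groups. Same-numbered libraries deviated together only weakly (r = 0.0932). Crest markers did not stand at 1 common level in low Wnt. Summed over 21 crest specifiers, low Wnt held 918.6 and 871.3 CPM, against 548.1 and 534.4 CPM in high Wnt and 598.4 and 649.2 CPM in hESC. PAX3, a regulator of the plate border and crest, was at 8.58 and 6.63 CPM against 177 and 169 in high Wnt, and FOXD3, an early crest regulator, was below 1 CPM in all 4 libraries.

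With SB4, 782 genes were higher and 1032 lower among 16149 tested, at a Benjamini-Hochberg adjusted p under 0.05 by the quasi-likelihood F-test of edgeR. Together these were 11.2% of the genes tested, 4.84% higher and 6.39% lower, and the median log2 fold change over all genes was 0. The falls were larger than the rises: 509 genes were lower by at least 2-fold and 202 higher, and 192 were lower by at least 4-fold against 40 higher. Leaving out low Wnt replicate 1 or 2 left 1014 and 910 genes called, and leaving out low Wnt + SB4 replicate 1 or 2 left 1067 and 784.

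**Figure D1:**
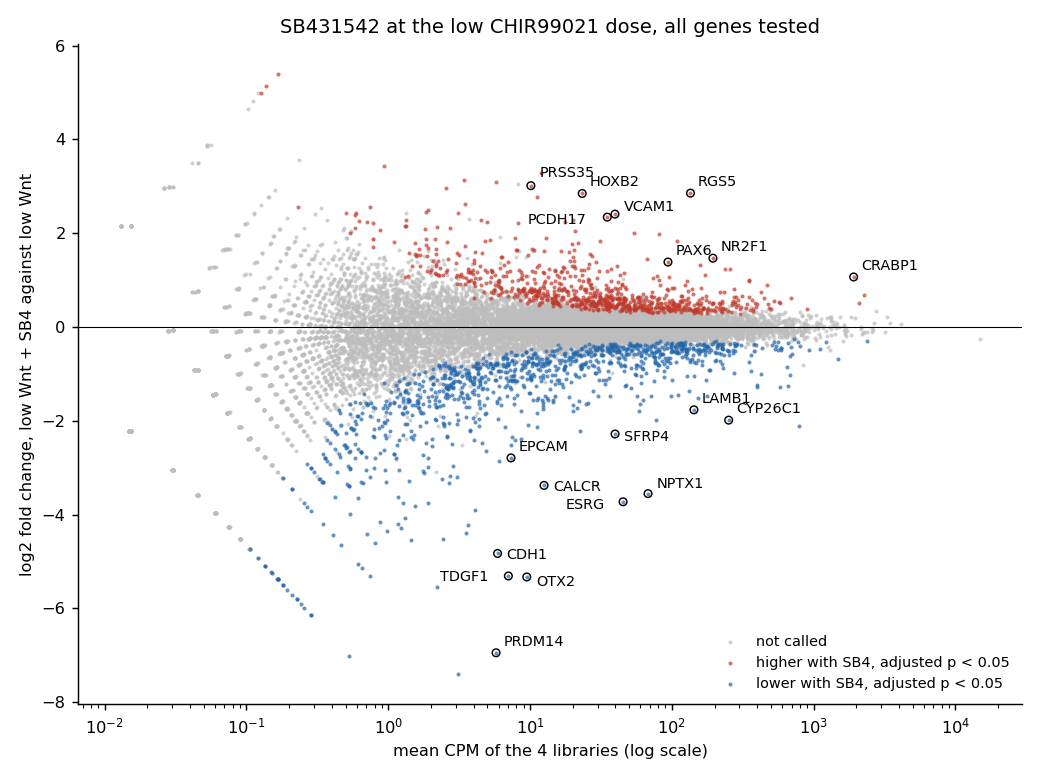
Log2 fold change of low Wnt + SB4 against low Wnt (vertical axis) by the mean CPM of the 4 libraries (horizontal axis, log scale), 1 point per gene tested. Called genes are red (782 higher) or blue (1032 lower); named genes are circled, and the falls of PRDM14, OTX2, TDGF1 and CDH1 reach further from 0 than the rises of RGS5, HOXB2 and VCAM1.

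Among the ligands of the blocked pathway and their secreted antagonists, 0 of 14 tested genes rose and 3 fell, with a median log2 fold change of -0.85 against 0 over all genes. Without the 3 members that had no counts in one group and too few in the other for a fold, the median was -0.61. FST encodes follistatin, a protein that traps activin. It was at 68.0 and 78.0 CPM in low Wnt and at 31.3 and 28.2 CPM with SB4, a log2 fold change of -1.29 ± 0.12 (SE), adjusted p = 2.74e-06. TGFB1, which encodes the ligand TGF-beta 1, was at 14.8 and 11.9 CPM and then at 6.95 and 6.18 CPM (-1.03 ± 0.21, adjusted p = 0.00335). Without low Wnt + SB4 replicate 2 its adjusted p was 0.0565. INHBE, an inhibin beta subunit, was called at 21 counts against 3, a ratio of 7.5 with an exact 95% interval of 2.24 to 39.2, and lost the call without low Wnt replicate 1 (adjusted p = 0.242) or either SB4 library.

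The other ligands showed no called change, and most were close to the limit of detection. NODAL had 3 counts in low Wnt and 2 with SB4, and INHBA, CER1 and GDF3 had at most 2 counts in either group. TGFB2 was at 10.3 and 8.97 CPM without and 14.6 and 11.9 CPM with SB4 (log2 0.46 ± 0.18, adjusted p = 0.124). The nodal antagonist LEFTY2 was at 2.25 and 2.81 CPM and at 1.77 and 1.05 CPM (-0.87 ± 0.36, adjusted p = 0.135), and its relative LEFTY1 stayed below 0.5 CPM in all 4 libraries.

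Of 11 receptor and co-receptor genes tested, 0 rose and 3 fell, with a median of -0.41. TDGF1 encodes Cripto, the co-receptor through which nodal reaches its receptors, and is also a marker of stem cells. Its level was 10.1 and 17.4 CPM in low Wnt and 0.427 and 0.262 CPM with SB4, a fall of 39.7-fold (log2 -5.31 ± 0.56, adjusted p = 5.88e-08). Of the receptors that the drug blocks, TGFBR1, the type I receptor of TGF-beta, was at 264 and 299 CPM and at 224 and 252 CPM (adjusted p = 0.228), so the groups did not overlap and the difference missed the threshold. ACVR1B, the type I receptor of activin and nodal, was at 50.1 and 57.7 CPM and at 55.1 and 59.5 CPM (adjusted p = 0.709). The third receptor that SB4 blocks, ACVR1C, was scarce, at 0.670 and 1.02 CPM against 0.183 and 0.157 CPM (-2.26 ± 0.57, adjusted p = 0.00715). Its call was lost without low Wnt replicate 2 or SB4 replicate 2 (adjusted p = 0.0851 and 0.0814). ACVR2A, a type II receptor, was modestly lower, at 26.1 and 26.7 CPM and then at 17.7 and 17.03 CPM (-0.60 ± 0.13, adjusted p = 0.00608; leaving out low Wnt replicate 2 or SB4 replicate 2 gave 0.0521 and 0.0718).

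The SMAD messengers did not pass the test. SMAD4 was at 149 and 166 CPM without SB4 and at 152 and 160 CPM with it, SMAD2 at 102 and 97.8 CPM and at 85.7 and 83.6 CPM, and SMAD3 at 148 and 138 CPM and at 131 and 119 CPM (adjusted p = 0.949, 0.0849 and 0.284). Of the 12 transducers and cofactors tested, 0 rose and 3 fell, and the median was -0.0029. FOXH1, the DNA-binding partner of SMAD2 in nodal responses, was at 8.22 and 8.67 CPM and fell to 1.34 and 1.36 CPM (-2.64 ± 0.25, adjusted p = 1.13e-06). The other 2 were the repressors SKIL and TGIF1, which are also counted among the feedback genes.

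Feedback genes are induced by the pathway and dampen it, and they are often read as a gauge of its activity. Of 10 tested, 0 rose and 3 fell, with a median of -0.40. PMEPA1, which encodes a membrane protein that binds SMADs, was at 2.50 and 2.27 CPM in low Wnt and at 0.122 and 0.210 CPM with SB4, a 13.5-fold fall (-3.76 ± 0.60, adjusted p = 4.03e-05). SKIL, a SMAD corepressor, was at 25.3 and 35.1 CPM and at 10.8 and 18.02 CPM (-1.06 ± 0.22, adjusted p = 0.00394). TGIF1, a homeodomain corepressor, moved less, from 75.9 and 80.6 CPM to 58.4 and 54.2 CPM (-0.47 ± 0.12, adjusted p = 0.0151). Both lost the call when single libraries were left out: SKIL without low Wnt replicate 2 or SB4 replicate 1 (adjusted p = 0.0680 and 0.0649), and TGIF1 without low Wnt replicate 2, SB4 replicate 1 or SB4 replicate 2 (0.117, 0.0527 and 0.155). SMAD7, the inhibitory SMAD, did not pass the test, at 3.77 and 5.14 CPM against 2.56 and 4.45 CPM (adjusted p = 0.578), nor did the decoy receptor BAMBI, at 4.81 and 5.50 CPM against 4.14 and 4.61 CPM (adjusted p = 0.517).

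The stretches directly before the start of the feedback genes that fell are shown because SMAD3 and SMAD4 bind the short box CAGAC. Each is the 250 bases upstream of the start in RefSeq's promoter table (build GRCh38.p14), 5′ to 3′ on the gene's strand, with CAGAC or its complement GTCTG in capitals. PMEPA1 lies at chr20:57711473-57711722 (minus strand), SKIL at chr3:170357465-170357714 (plus) and TGIF1 at chr18:3411759-3412008 (plus).
PMEPA1: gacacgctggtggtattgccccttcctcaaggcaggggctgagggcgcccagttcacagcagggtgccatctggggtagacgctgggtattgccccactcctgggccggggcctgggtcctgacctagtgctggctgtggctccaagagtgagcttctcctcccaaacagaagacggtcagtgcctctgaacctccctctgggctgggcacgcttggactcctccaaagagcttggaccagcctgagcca
SKIL: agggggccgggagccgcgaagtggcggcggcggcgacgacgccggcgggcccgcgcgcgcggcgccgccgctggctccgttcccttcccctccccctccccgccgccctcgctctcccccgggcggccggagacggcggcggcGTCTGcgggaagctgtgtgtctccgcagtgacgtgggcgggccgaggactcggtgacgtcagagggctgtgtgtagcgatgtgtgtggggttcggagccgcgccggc
TGIF1: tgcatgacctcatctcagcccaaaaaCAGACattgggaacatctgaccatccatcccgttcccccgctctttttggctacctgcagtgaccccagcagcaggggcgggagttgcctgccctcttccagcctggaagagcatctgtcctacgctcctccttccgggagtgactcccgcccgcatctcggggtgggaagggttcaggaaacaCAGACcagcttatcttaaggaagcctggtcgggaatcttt
The box occurred 0 times before PMEPA1, 1 time before SKIL and 2 times before TGIF1. Over the 8 feedback genes that matched the table, 7 (87.5%) had at least 1 box on either strand, against 38% of all 35116 promoters. The FOXH1 motif AATCCACA was found in 0 of the 8 and in 0.709% of all promoters. A match describes letters in this window and does not show binding, and PMEPA1, with no match, had the largest fold of the 3 genes.

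**Figure D2:**
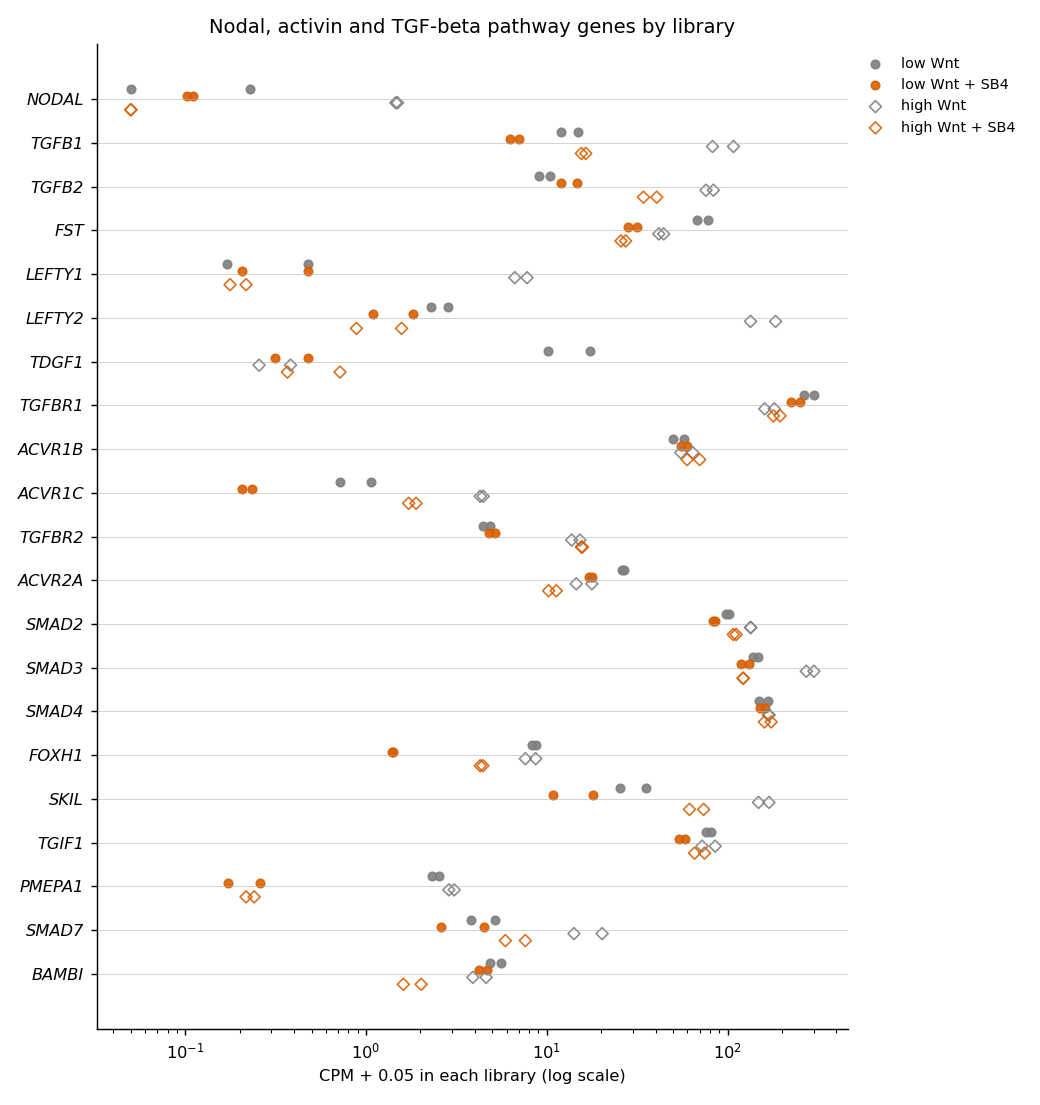
CPM plus 0.05 in each library (log scale) for 21 ligand, receptor, transducer and feedback genes, with low Wnt as grey circles, low Wnt + SB4 as orange circles, high Wnt as open grey diamonds and high Wnt + SB4 as open orange diamonds. At the low dose the groups lie far apart for TDGF1, FOXH1 and PMEPA1 and close together for SMAD4, ACVR1B and TGFBR2, and LEFTY2 lies much further apart at the high dose.

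Genes of the matrix and the contractile cytoskeleton that TGF-beta induces in many cell types went both ways at this dose. Of 26 tested, 4 rose and 6 fell, with a median of -0.22. Without low Wnt replicate 1 or SB4 replicate 1, 2 rose and 3 fell, and without SB4 replicate 2, 2 rose and 4 fell. COL1A1, the main chain of type I collagen, was at 254 and 270 CPM and fell to 102 and 85.8 CPM with SB4 (log2 -1.48 ± 0.10, adjusted p = 5.01e-08). In the other direction CTGF, a matricellular protein, was at 223 and 243 CPM and rose to 456 and 480 CPM (1.01 ± 0.14, adjusted p = 0.000149). The smooth muscle protein TAGLN was at 148 and 178 CPM and rose to 255 and 288 CPM (0.74 ± 0.17, adjusted p = 0.00814). The rise of TAGLN lost its call without low Wnt replicate 1 (adjusted p = 0.0951) or SB4 replicate 2 (0.0945), and that of the related matricellular gene CYR61 (0.64 ± 0.15, adjusted p = 0.00904) without low Wnt replicate 2 (0.0712) or SB4 replicate 1 (0.0967).

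Falls were ranked among called genes at a mean of at least 10 CPM in low Wnt, leaving out symbols styled as non-coding. The steepest included genes of stem cells, epithelium and the anterior brain. In bulk RNA, fewer cells of a type and less RNA per cell cannot be told apart, and this holds for every gene below. PRDM14, a regulator of pluripotency, had 380 counts in low Wnt (7.67 and 15.2 CPM) and 3 counts with SB4, a ratio of 136 with an exact 95% interval of 46.1 to 661 that covers counting error only. OTX2, the homeodomain regulator of forebrain and midbrain that stem cells also express, was at 16.5 and 20.5 CPM and dropped to 0.670 and 0.262 CPM, a 40.2-fold fall (log2 -5.33 ± 0.42, adjusted p = 8.36e-09). CDH1 encodes E-cadherin, the adhesion protein of epithelia. It was at 10.3 and 12.6 CPM and at 0.305 and 0.471 CPM with SB4 (28.4-fold lower, adjusted p = 2.36e-08).

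Not every steep fall was in a gene that stem cells express highly. NPTX1, a secreted neuronal pentraxin, was at 121 and 129 CPM in low Wnt, 11.9 and 9.43 CPM with SB4 and a mean of 30.7 CPM in hESC (log2 fold change with SB4 -3.55 ± 0.18, adjusted p = 5.12e-09). SFRP4, a secreted Wnt antagonist, was at 59.7 and 72.3 CPM and at 12.6 and 14.5 CPM (-2.28 ± 0.17, adjusted p = 2.16e-07), with 0.037 CPM in hESC. CALCR, the calcitonin receptor gene, was at 21.6 and 24.2 CPM and at 2.13 and 2.25 CPM (-3.38 ± 0.36, adjusted p = 8.12e-06), with 6.47 CPM in hESC. By contrast ESRG, a transcript known from stem cells, was at 78.8 and 89.7 CPM and at 5.91 and 6.76 CPM (-3.73 ± 0.13, adjusted p = 4.29e-11), with 1569 CPM in hESC. The other genes among the 15 steepest falls at 10 CPM or more were PAMR1, EPCAM, COBL, GYLTL1B, MAF, ITPR3 and ZFP42, with log2 fold changes from -2.87 to -2.23.

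**Figure D3:**
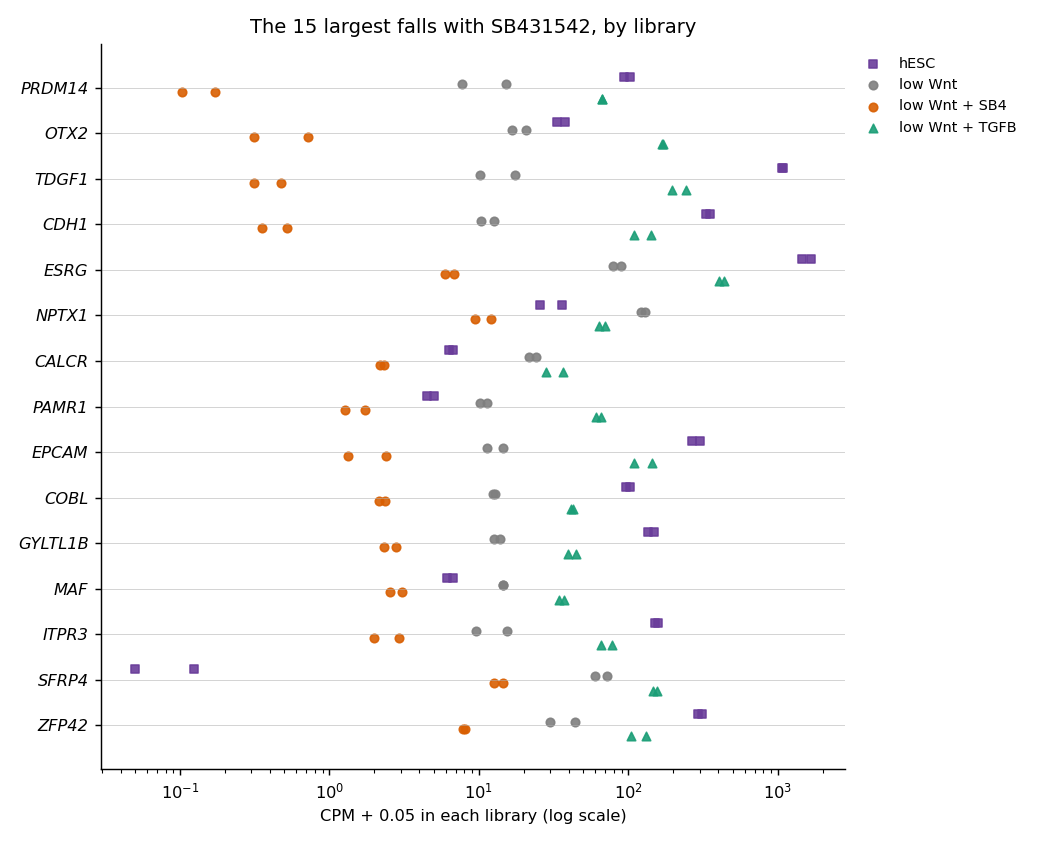
CPM plus 0.05 in each library (log scale) for the 15 steepest falls among genes at 10 CPM or more in low Wnt, in hESC (purple squares), low Wnt (grey circles), low Wnt + SB4 (orange circles) and low Wnt + TGFB (green triangles). The orange points lie left of the grey ones for all 15 genes; hESC lies to the right of low Wnt for genes such as TDGF1 and CDH1 but to the left of it for NPTX1, CALCR, PAMR1, MAF and SFRP4.

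Of 23 pluripotency genes tested, 0 rose and 9 fell (median -1.03, or -0.79 with genes at 0 in one group set to their bound or left out). NANOG had 40 counts against 1, a ratio of 42.8 (7.26 to 1730), with a mean of 87.0 CPM in hESC. POU5F1, which encodes OCT4, was at 1.95 and 4.36 CPM and at 0.305 and 0.786 CPM (adjusted p = 0.00309; 0.0683 when low Wnt replicate 2 was left out), with 198 CPM in hESC. DNMT3B, a DNA methyltransferase abundant in stem cells, fell less, from 241 and 260 CPM to 157 and 145 CPM (-0.73 ± 0.09, adjusted p = 4.80e-05). SOX2, which neural progenitors also express, was at 543 and 441 CPM and at 488 and 537 CPM, so the groups overlapped (adjusted p = 0.819). Summed over all 24 genes of the list, the level was 9911 to 10010 CPM in hESC, 4648 and 5068 in low Wnt + TGFB, 2964 and 3121 in low Wnt, and 2435 and 2578 with SB4. PRDM14, TDGF1, NANOG and POU5F1 were each higher in low Wnt replicate 2 than in replicate 1.

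Of 18 epithelial genes tested, 0 rose and 12 fell, with a median of -1.97. Without low Wnt replicate 2 or without SB4 replicate 2, 7 were called lower. Besides CDH1, the adhesion gene EPCAM was at 11.3 and 14.4 CPM and at 1.28 and 2.36 CPM with SB4 (-2.79 ± 0.28, adjusted p = 2.40e-06). The splicing regulator ESRP1, which sets epithelial splice forms, was at 4.75 and 8.67 CPM and at 0.548 and 0.105 CPM (-4.40 ± 0.62, adjusted p = 4.88e-06), and the tight junction gene CLDN6 was at 85.7 and 94.9 CPM and at 29.6 and 28.7 CPM (-1.63 ± 0.13, adjusted p = 5.63e-07). CDH2, the N-cadherin of neural tissue and mesenchyme, rose from 524 and 574 CPM to 807 and 880 CPM (0.62 ± 0.09, adjusted p = 0.000207). Mesenchymal genes as a list went both ways, with 3 rises and 5 falls among 15 tested (median 0.10). PDGFRB was among these falls (log2 -1.12, adjusted p = 1.59e-06). All 4 of these epithelial genes were higher in hESC than in low Wnt, at means of 340 CPM (CDH1), 283 CPM (EPCAM), 224 CPM (ESRP1) and 1052 CPM (CLDN6).

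Genes higher in hESC than in high Wnt made up a larger share of the falls than of all genes tested. Of the 1032 genes lower with SB4, 521 (50.5%) were called higher in hESC than in high Wnt, 2 groups that take no part in the comparison, and the share was 72.4% among the 192 lower by at least 4-fold. The same contrast called 36.1% of all genes tested and 39.3% of the 782 genes higher with SB4. Among the 202 higher by at least 2-fold the share was 29.2%. A gene can enter this set through a low level in high Wnt as well as through a high level in hESC. The 521 were 8.94% of all genes higher in hESC than in high Wnt. Outside these genes 511 were lower and 475 higher with SB4. The part that remaining stem cells play in the falls was not tested.

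Of 13 anterior identity genes tested, 0 rose and 5 fell (median -1.47): OTX2, LHX5, DMBX1, FEZF1 and WNT1. WNT1, the ligand of the midbrain-hindbrain boundary and dorsal neural tube, was at 10.4 and 9.92 CPM and at 2.92 and 4.35 CPM (-1.47 ± 0.26, adjusted p = 0.00107), while hESC had 0.042 CPM. Of 18 mesendoderm and endoderm genes 1 rose and 4 fell (median -2.12, or -1.32 on the same terms): FOXA2, an endoderm and floor plate factor, had 30 counts against 1, a ratio of 32.1 (5.34 to 1310), and lost its call without SB4 replicate 2 (adjusted p = 0.0969). FOXA3 lost it there too (0.0537), and 1 of the 18 was then called lower. OTX2, among the 4 as well, is also in the anterior list. The gene of this list that rose was CXCR4, a chemokine receptor also found in migrating crest and neural cells, at 15.7 and 16.3 CPM and then 29.7 and 33.1 CPM (0.98 ± 0.16, adjusted p = 0.000621).

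Of 18 regulators and markers of central nervous system progenitors tested, 10 rose and 2 fell, with a median of 0.83. Their log2 fold changes, called or not, ran from -3.01 to 3.44, and the genes described next are rises only. With 1 library left out 8 to 11 rose and 1 fell. PAX6, a progenitor regulator of the forebrain, eye and spinal cord, was at 54.1 and 49.97 CPM and rose to 150 and 121 CPM (1.38 ± 0.16, adjusted p = 3.45e-05). POU3F2, a neural POU factor, was at 103 and 79.7 CPM and rose to 220 and 235 CPM (1.32 ± 0.15, adjusted p = 2.07e-05), and DBX1, which marks a dorsoventral domain of the neural tube, went from 13.9 and 13.3 CPM to 42.0 and 54.9 CPM (1.84 ± 0.21, adjusted p = 3.42e-05). FABP7, the lipid carrier of radial glia, was at 7.67 and 8.49 CPM and then at 25.4 and 24.1 CPM (1.61 ± 0.17, adjusted p = 7.88e-06). The rise of the Notch effector HES5 rested on 1 library: it was at 1.46 and 0.956 CPM in low Wnt and at 2.25 and 18.3 CPM with SB4, and without SB4 replicate 2 its adjusted p was 0.524. It also missed the threshold without either low Wnt library (0.0563 and 0.100) and in DESeq2 (0.218). SOX1 rose little and close to the threshold, from 177 and 176 CPM to 208 and 262 CPM (0.42 ± 0.13, adjusted p = 0.0493, 0.0536 with library totals alone, 0.0542 with RLE scaling, and 0.189 to 0.472 without low Wnt replicate 1, low Wnt replicate 2 or SB4 replicate 2).

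HOX genes mark position along the hindbrain and spinal cord. HOXB2, a hindbrain gene, was at 5.84 and 5.56 CPM and rose 7.19-fold to 34.6 and 47.3 CPM (log2 2.85 ± 0.18, adjusted p = 2.36e-08). Among HOX paralogues 1 to 5, 3 of 15 rose and 0 fell. The other 2 were HOXA2, from 29.8 and 25.3 CPM to 43.5 and 44.2 CPM (adjusted p = 0.0259), and HOXC4, from 2.01 and 2.69 CPM to 5.42 and 5.24 CPM (adjusted p = 0.0107). With any 1 of the 4 libraries left out, HOXA2 lost its call (adjusted p from 0.0583 to 0.195) while its log2 fold change stayed between 0.56 and 0.79. HOXC4 lost its call without low Wnt replicate 1, SB4 replicate 1 or SB4 replicate 2 (0.104, 0.0550 and 0.0594), at log2 fold changes of 0.98, 1.15 and 1.201. Of 12 genes of paralogues 6 to 9, 0 were called in either direction. Summed over these 12 genes, the level was 10.96 and 10.88 CPM in low Wnt and 8.84 and 4.40 CPM with SB4. At such low levels a change could be missed. HOXB-AS1, a non-coding transcript of the HOXB cluster that was counted by strand, rose from 2.56 and 1.91 CPM to 19.3 and 24.2 CPM (3.28 ± 0.24, adjusted p = 1.41e-07).

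Retinoic acid sets much of this hindbrain pattern. CYP26C1 and CYP26A1, which encode enzymes that degrade it, fell with SB4, and a link to the HOX genes was not tested. CYP26C1 was at 422 and 382 CPM and fell 3.97-fold to 106 and 96.7 CPM (-1.99 ± 0.12, adjusted p = 3.81e-08). CYP26A1 was at 151 and 137 CPM and at 54.7 and 49.98 CPM (-1.46 ± 0.19, adjusted p = 8.05e-05). Of 20 retinoic acid genes 2 rose and 5 fell (median 0.048). The rises were CRABP1, a cytoplasmic retinoic acid carrier, from 1317 and 1161 CPM to 2702 and 2483 CPM (1.06 ± 0.11, adjusted p = 1.01e-05), and MEIS1, a cofactor of HOX proteins, from 28.4 and 28.3 CPM to 60.4 and 66.0 CPM (1.16 ± 0.11, adjusted p = 4.98e-06).

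The crest programme itself shifted in both directions. Of 21 crest specifiers 3 rose and 5 fell (median -0.022), and of 11 plate border genes 2 rose and 2 fell. With 1 library left out, 2 to 3 specifiers fell, and 1 rose without low Wnt replicate 1, low Wnt replicate 2 or SB4 replicate 2. In the border list 1 rose without low Wnt replicate 2 or SB4 replicate 2. PAX3 rose to 16.8 and 17.3 CPM from 8.58 and 6.63 CPM (1.16 ± 0.14, adjusted p = 4.15e-05), and NR2F1, a nuclear receptor of crest and neural progenitors, from 107 and 100 CPM to 287 and 286 CPM (1.47 ± 0.12, adjusted p = 4.09e-07). SNAI2, a driver of crest delamination, was at 17.8 and 18.9 CPM and at 26.8 and 30.4 CPM (0.64 ± 0.17, adjusted p = 0.0213). SOX10, which maintains crest and glia, was lower at 1.65 and 1.62 CPM against 4.26 and 3.83 CPM (-1.30 ± 0.31, adjusted p = 0.0100), and ETS1, a regulator of cranial crest, was at 7.74 and 8.12 CPM against 13.8 and 15.8 CPM (-0.90 ± 0.14, adjusted p = 0.000486). The calls of SNAI2 and SOX10 were lost without low Wnt replicate 1 (adjusted p = 0.132 and 0.0681) and without SB4 replicate 2 (0.180 and 0.0899), that of SNAI2 also without low Wnt replicate 2 (0.0825) and that of SOX10 without SB4 replicate 1 (0.0660). SOX9, TFAP2A and TFAP2B, all crest regulators, did not pass the test (adjusted p = 0.537, 0.847 and 0.233).

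Of 13 genes of sensory and autonomic neurons tested, 0 rose and 4 fell (median -0.86), or 2 without low Wnt replicate 1 or SB4 replicate 2. NTRK2, the receptor of the growth factor BDNF, was at 565 and 574 CPM and at 280 and 291 CPM (-0.99 ± 0.14, adjusted p = 0.000210), and RET, the receptor of GDNF family ligands, at 28.9 in both and then at 16.7 and 15.8 CPM (-0.83 ± 0.18, adjusted p = 0.00534, and 0.0679 without SB4 replicate 2). Neuronal genes in general had 4 rises and 5 falls among 21, with 1 to 2 rises when any 1 library was left out and 2 falls without low Wnt replicate 1. Of 18 ectomesenchyme and pharyngeal arch genes 0 rose and 5 fell, but only 3 fell in DESeq2 and 2 to 3 with any 1 of the 4 libraries left out, ALX4 and FOXC2 being lost in most of these. The called genes included BARX1, a regulator of jaw and stomach mesenchyme, from 17.96 and 13.6 CPM to 3.53 and 3.82 CPM (-2.10 ± 0.35, adjusted p = 0.000765).

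**Figure D4:**
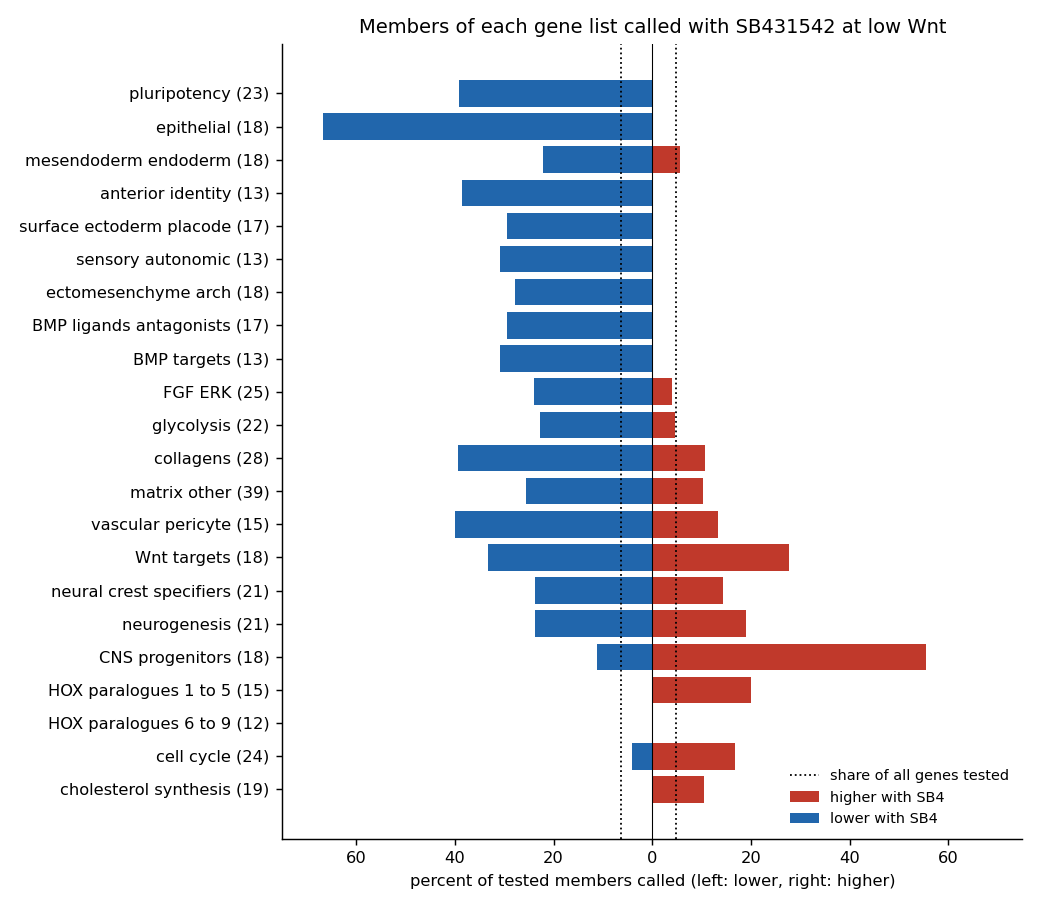
Percent of the tested members of 22 gene lists called lower (blue, left) or higher (red, right) with SB4 at low Wnt, with the number tested in brackets and dotted lines at the share of all genes tested (6.39% lower, 4.84% higher). Falls prevail in the epithelial, pluripotency, anterior and collagen lists and rises in the list of central nervous system progenitors; lists share some members.

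A pair of genes known from blood vessels and pericytes was among the largest rises. RGS5, a regulator of G protein signaling, was at 31.5 and 34.4 CPM and rose 7.22-fold to 230 and 246 CPM (log2 2.85 ± 0.11, adjusted p = 1.06e-10). VCAM1, an adhesion molecule, was at 12.4 and 12.8 CPM and rose 5.30-fold to 66.5 and 67.1 CPM (2.40 ± 0.13, adjusted p = 8.36e-09). Of 15 vascular and pericyte genes tested these 2 rose and 6 fell. PDGFRB, the pericyte growth factor receptor, was at 227 and 249 CPM and at 118 and 101 CPM (-1.12 ± 0.10, adjusted p = 1.59e-06), and KDR, a receptor of VEGF, at 3.65 and 3.17 CPM and at 0.366 and 0.471 CPM (-2.99 ± 0.35, adjusted p = 4.13e-06). Other steep rises were PRSS35, MTTP, GRIK3, KCNC1, PHYHIPL, TNIK, MBNL3, VEPH1 and BAALC, with log2 fold changes from 1.89 to 3.01, and the adhesion gene PCDH17, from 10.8 and 12.2 CPM to 60.7 and 56.4 CPM (2.34 ± 0.20, adjusted p = 1.04e-06).

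Among other signaling pathways, BMP and FGF genes were called lower more often than higher, and Wnt targets, Notch genes (2 rises and 2 falls among 19) and Hedgehog genes (3 and 3 among 11) went both ways. BMP ligands and antagonists had 0 rises and 5 falls among 17, and BMP targets 0 and 4 among 13. The 5 became 3 without low Wnt replicate 2 and 2 without SB4 replicate 2, and the 4 became 2 without low Wnt replicate 1 or SB4 replicate 2, when ID1 (adjusted p = 0.452 and 0.350) and SMAD6 (0.172 and 0.0939) lost the call. GATA2, a BMP-induced factor of surface ectoderm and blood vessels, had 143 counts against 3, a ratio of 51 (17.1 to 250). BMP4 was at 4.44 and 4.18 CPM and at 0.914 and 1.15 CPM (-2.04 ± 0.30, adjusted p = 0.000108), and ID2, a BMP-induced inhibitor of basic helix-loop-helix factors, at 156 and 187 CPM and at 94.9 and 118 CPM (-0.68 ± 0.12, adjusted p = 0.00129). FGF and ERK genes had 1 rise and 6 falls among 25. The rise was not called by DESeq2, with RLE scaling or with any 1 of the 4 libraries left out, and 3 falls were called without SB4 replicate 2. The ERK-induced factor ETV4 was at 3.47 and 4.24 CPM and at 1.46 and 0.629 CPM (-1.91 ± 0.32, adjusted p = 0.000436). Wnt targets had 5 rises and 6 falls among 18, with 2 to 3 rises when any 1 library was left out, and 3, 3 and 2 falls without low Wnt replicate 2, SB4 replicate 1 and SB4 replicate 2. AXIN2, the usual readout of Wnt signaling, was at 64.3 and 78.8 CPM and at 81.7 and 94.4 CPM (adjusted p = 0.190), LGR5, a receptor of R-spondins, rose from 0.609 and 1.02 CPM to 4.02 and 3.20 CPM (2.13 ± 0.38, adjusted p = 0.000915), and SP5 had 55 counts against 3, a ratio of 19.6 (6.37 to 98.1).

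Matrix genes fell more often than they rose. Of 28 collagen genes 3 rose and 11 fell (median -0.28), and of 39 other matrix genes 4 rose and 10 fell (median -0.18). The collagen falls were 6, 7 and 6 without low Wnt replicate 1, SB4 replicate 1 and SB4 replicate 2, and the other matrix rises were 2 with any 1 library left out. LAMB1, a laminin chain of basement membranes, was at 223 and 220 CPM and fell 3.41-fold to 68.9 and 61.1 CPM (-1.77 ± 0.09, adjusted p = 4.23e-09), and the membrane-bound collagenase MMP14 was at 38.1 and 37.5 CPM and at 12.6 and 11.6 CPM (-1.64 ± 0.12, adjusted p = 2.21e-07). COL2A1, the collagen of cartilage and of embryonic neuroepithelium, rose from 320 and 338 CPM to 612 and 610 CPM (0.89 ± 0.10, adjusted p = 2.37e-05). Among glucose transporters SLC2A3 fell from 527 and 601 CPM to 247 and 228 CPM (-1.25 ± 0.13, adjusted p = 9.76e-06) and SLC2A1 rose from 293 and 347 CPM to 518 and 553 CPM (0.74 ± 0.14, adjusted p = 0.00183). Of 22 glycolysis and hypoxia genes 1 rose and 5 fell, or 2 to 3 with any 1 library left out. Proliferation genes had 4 rises and 1 fall among 24, with log2 fold changes from -0.35 to 0.50. These calls were fragile: 2 rises were called with RLE scaling, 0 to 2 with any 1 of the 4 libraries left out, and the fall, in AURKA, was lost without low Wnt replicate 1, low Wnt replicate 2 or SB4 replicate 2 (adjusted p = 0.190, 0.131 and 0.348), while DESeq2 called 3 falls.

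The effect of SB4 depended on the CHIR99021 dose for 981 genes, 6.07% of those tested, by the interaction term of the same fit: 543 (3.36%) had a higher log2 fold change at the low dose and 438 (2.71%) a lower one. At the high dose alone SB4 raised 1605 genes (9.94%) and lowered 1871 (11.6%), and these libraries are distinct from those at the low dose. Of the 782 genes raised at the low dose 328 (41.9%) were raised at the high dose too, which is 20.4% of the genes raised there. For falls the shared number was 436, or 42.2% of the low-dose and 23.3% of the high-dose falls. Calls in opposite directions numbered 67 (8.57%) for genes raised at the low dose and 42 (4.07%) for genes lowered there. These shares were below the 11.6% lowered and 9.94% raised among all genes at the high dose.

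The interaction was called in 2 of 10 feedback genes, LEFTY1 and LEFTY2, and in 9 of 14 smooth muscle and contractile genes. NODAL, a feedback gene without a call, was too scarce at the low dose for a difference between doses to be judged. LEFTY2 was at 184 and 134 CPM in high Wnt and at 1.52 and 0.836 CPM in high Wnt + SB4, whereas at the low dose it was below 3 CPM in all 4 libraries (interaction log2 6.22, adjusted p = 1.09e-06). PMEPA1 fell at both doses, with log2 fold changes of -3.76 at the low and -3.98 at the high dose (interaction 0.22 ± 0.85, adjusted p = 0.949). In the list of matrix and cytoskeleton targets 0 of 26 rose and 21 fell at the high dose, against 4 and 6 at the low dose, and the interaction was called in 13, all with the higher value at the low dose. TAGLN was at 875 and 777 CPM in high Wnt and at 85.3 and 115 CPM with SB4 there, and CTGF at 301 and 232 CPM and at 72.7 and 99.1 CPM. So for both genes the direction was opposite at the 2 doses. VCAM1 also turned: at the high dose it was at 5.23 and 5.57 CPM without and 0.699 and 0.891 CPM with SB4 (-2.74, adjusted p = 2.42e-07, interaction 5.15, adjusted p = 6.74e-09), and the cardiac actin ACTC1 at 201 and 141 CPM and then 11.4 and 10.1 CPM, against 15.04 and 22.6 CPM and then 31.9 and 38.6 CPM at the low dose.

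Several genes with a steep fall at the low dose had almost no counts at the high dose to begin with. OTX2 was at 0.582 and 0.206 CPM in high Wnt and at 0.318 and 0.279 CPM in high Wnt + SB4 (interaction -4.99, adjusted p = 0.00186). TDGF1 and NPTX1 were likewise below 1 CPM in all 4 high-dose libraries (interaction -6.22 and -3.86, adjusted p = 0.000511 and 0.000730). NTRK2 differed in another way: it fell at the low dose but rose at the high dose, from 6.65 and 5.71 CPM to 25.5 and 37.9 CPM (interaction -3.36, adjusted p = 2.64e-07). PAX6 rose at both, and more steeply at the high dose, where it went from 5.98 and 6.67 CPM to 70.0 and 87.6 CPM (interaction -2.25, adjusted p = 3.88e-05).

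**Figure D5:**
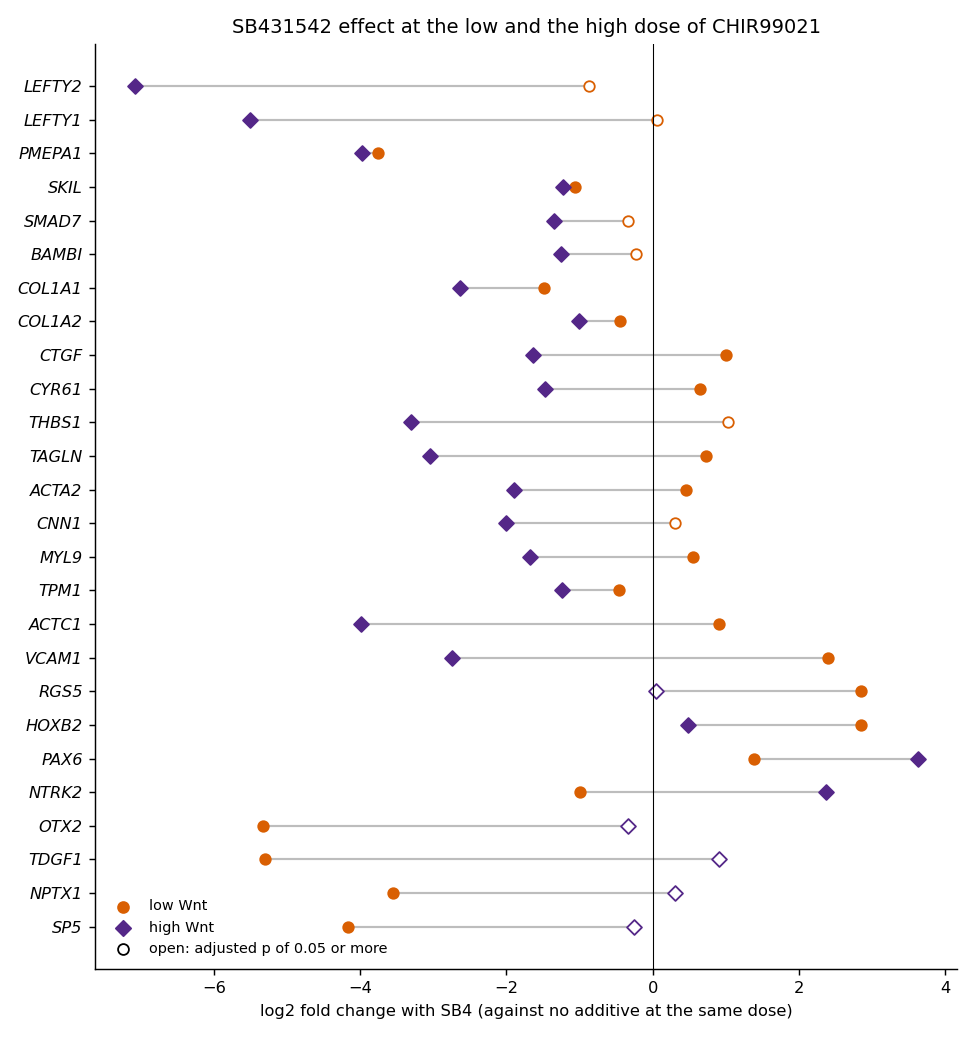
Log2 fold change with SB4 against no additive at low Wnt (orange circles) and high Wnt (purple diamonds) for 26 genes, open where the adjusted p was 0.05 or more. PMEPA1 and SKIL lie close together at both doses, CTGF, TAGLN, ACTC1 and VCAM1 lie on opposite sides of 0, and OTX2, TDGF1 and NPTX1 were called at low Wnt and are open at high Wnt.

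Adding the ligand in place of the inhibitor, at the same CHIR99021 dose, raised 2220 genes (13.7%) and lowered 1976 (12.2%). This comparison uses the same low Wnt libraries as that of SB4, so the values are set side by side only. OTX2 was at 168 and 170 CPM with TGFB and had log2 fold changes of 3.19 with TGFB and -5.33 with SB4. CDH1, at 110 and 142 CPM with TGFB, had 3.46 and -4.83, and PMEPA1, at 9.24 and 14.8 CPM, had 2.33 and -3.76. PAX6 was at 19.1 and 11.8 CPM with TGFB, with -1.77 for TGFB and 1.38 for SB4, and HOXB2 at 1.99 and 2.63 CPM, with -1.28 and 2.85. NPTX1 and NTRK2 were lower with either additive, at log2 fold changes of -0.92 and -1.90 with TGFB and -3.55 and -0.99 with SB4.

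Among non-coding transcripts, LINC01314 rose from 20.3 and 23.2 CPM to 78.9 and 95.1 CPM (1.999 ± 0.16, adjusted p = 6.17e-07). JAKMIP2-AS1 had 204 counts in low Wnt and 1 with SB4, a ratio of 218 (38.8 to 8670), and was at 28.6 and 28.0 CPM with TGFB. NR2F1-AS1 rose from 2.44 and 2.03 CPM to 5.12 and 6.44 CPM (adjusted p = 0.0130) beside its neighbour NR2F1, and lost the call without low Wnt replicate 1 (0.0546), low Wnt replicate 2 (0.113) or SB4 replicate 2 (0.135). VLDLR-AS1 fell from 7.06 and 7.23 CPM to 1.22 and 2.04 CPM (-2.11 ± 0.43, adjusted p = 0.00380, and 0.0596 without SB4 replicate 1).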

How the data were processed

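The authors deposited raw counts per gene for the 14 libraries. Per the submitters' processing notes, the tools were featureCounts 2.0.0, HISAT2 2.2.0 and SAMtools 1.10 and the build hg38; per the file headers, fragments were counted by strand over the exons of UCSC genes, leaving out multiply mapped reads. Trimming is not given in the sources used here. Counts were tested in R 4.3.3 with edgeR 4.0.16: filterByExpr (16149 of 26485 genes kept), TMM scaling, and quasi-likelihood F-tests with Benjamini-Hochberg adjustment from 1 fit of 7 groups (7 residual degrees of freedom, common biological coefficient of variation 0.101), called at an adjusted p under 0.05. CPM use TMM-scaled library sizes, and ± is the standard error. The code was tested on simulated data. The 2 libraries of a group differed by more than counting noise, with a chi-square over its degrees of freedom of 7.45 (low Wnt) and 6.52 (with SB4).

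The comparison and the 44 gene lists were chosen with earlier results of these data known. Named genes were the 15 largest rises and falls (at least 10 CPM in the higher group, no overlap), up to 4 called members of each list by smallest p, all pathway genes, a panel, the 5 largest dose differences in each direction and 3 non-coding genes in each direction. Some genes that the rule names are not reported here. A few other list members and genes are named to account for a small count or after their values were seen. Intervals of ratios are exact 95% intervals that cover counting error only. Promoters came from RefSeq (GRCh38.p14), at 1 start per gene. Alternatives comprised each library left out in turn, a replicate block, a 2-fold minimum, fits without hESC or restricted to the groups at issue, unfiltered genes, RLE or unscaled library sizes, and DESeq2 1.42.0.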

Additional observations from a re-analysis of the deposited data

Results flagged for a closer look

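The effect of SB4 differed between the low and the high dose of CHIR99021, by the interaction term of edgeR's quasi-likelihood fit, for 981 genes. Among named genes the log2 fold change was higher at the low dose, as the difference of low minus high, for LEFTY2 (6.22), UNCX (6.11), LEFTY1 (5.57), VCAM1 (5.15), ACTC1 (4.90), JPH2 (4.37), CTGF (2.64), ETS1 (2.48), HOXB2 (2.36), TGFB1 (1.55), TGFB2 (1.55), COL1A1 (1.15), SMAD3 (1.03), PAX3 (0.71), LEF1 (0.62), COL1A2 (0.57) and CDH2 (0.52). It was lower at the low dose for TDGF1 (-6.22), OTX2 (-4.99), MARCH4 (-3.99), SP5 (-3.91), NPTX1 (-3.86), CDH1 (-3.53), NTRK2 (-3.36), PAX6 (-2.25), FOXH1 (-1.73) and SOX1 (-1.29). OTX2, TDGF1 and NPTX1 were close to the limit of detection at the high dose, and LEFTY1 at the low dose, where LEFTY2 was also scarce. For these genes a change at that dose could be missed, and the difference rests mainly on the other dose. UNCX had 0 counts in low Wnt and 12 with SB4, at least 3.74-fold higher against 3 counts over the group. Groups of 2 libraries allow no check for a library far from the others.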

How the results depend on the processing

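Labels give replicate numbers but do not say that a number marks a shared culture or day, and same-numbered libraries deviated together only weakly (r = 0.0932 between low Wnt and low Wnt + SB4, 0.206 at the high dose). With the number as a replicate block, SB4 at low Wnt: genes called were 2101, against 1814 without it, and 0 of 169 named genes lost the call. Unfiltered genes gave 2348 calls, a fit of the compared groups by themselves 2259, a fit without hESC 2135, RLE sizes 1801, unscaled sizes 1784 and DESeq2 1741. With a log2 fold change of at least 1, SB4 at low Wnt had 711 genes called (202 higher, 509 lower), the dose difference 576, SB4 at high Wnt 962 and TGFB at low Wnt 1654. Without genes higher in hESC than in high Wnt, a setting chosen after seeing the data, 986 were called for SB4 at low Wnt, 475 higher and 511 lower. Leaving out each library in turn gave 784 to 1067 genes called for SB4 at low Wnt (322 to 430 higher and 462 to 640 lower), 662 to 775 for the dose difference, 1944 to 2422 for SB4 at high Wnt and 2342 to 3564 for TGFB at low Wnt. A group left with 1 library is assumed to vary like the other groups. Of the 169 named genes called, 114 kept the call under the 11 alternatives other than the 2-fold minimum and 55 lost it under at least 1 of them, none with a change of direction, and 94 of the 114 were also at least 2-fold; 28, 34, 25 and 40 lost it without low Wnt replicate 1, low Wnt replicate 2, SB4 replicate 1 and SB4 replicate 2. Depth limits statements on genes below about 0.157 to 0.183 CPM, the level that 3 counts give.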
